A study of Drosophila melanogaster with 3 samples.

Results

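Non-LTR retrotransposons accounted for 312 of the 1702 transposable element (TE) insertions called in the ORw1118 genome from reads treated as single-end. The members were all calls whose family was *jockey*, *Doc*, *I-element*, *F-element*, *BS*, *Ivk*, *G2*, *G5*, *X-element*, *Juan* or *baggins*, with no minimum of read support, and 10 of these 11 families had at least 1 call. Genomic DNA came from whole adult females of Oregon-R w1118 (ORw1118), with 100 flies in each of 3 biological replicates and no treatment. The replicates were combined before insertions were called with TIDAL, a split-read method that finds reads joining unique genome sequence to TE sequence, so that every value below belongs to 1 pooled library and no spread between replicates can be given. The same reads gave a second list, from overlapping read pairs that were merged and trimmed, with 269 non-LTR calls of 1487. ORw1118 was the strain of the study's chromosome contact (Hi-C) data. Enrichment of the histone mark H3K9me2 around its TE insertions was compared there with wildtype strains. The values here describe the positions of the insertions and not their effects.

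Non-LTR retrotransposons lack the long terminal repeats of retrovirus-like TEs such as *roo* and *copia*. They are copied from an RNA intermediate by target-primed reverse transcription, in which the element's own endonuclease nicks the chromosome and reverse transcription starts at the 3′ end of the RNA. Copying that stops early leaves elements that keep the 3′ end and lack the 5′ end, and most families end in an A-rich tail, while the *I-element*, known for I-R hybrid dysgenesis in *Drosophila*, ends in short TAA repeats. *jockey*, *Doc*, *F-element*, *BS*, *X-element*, *Juan* and the *G* elements belong to the jockey clade.

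For each call the list gives an interval of the genome, the number of supporting split reads on each of the 2 sides of the insertion, a position in the TE for each side, and the reads of the uninterrupted site, called reference reads. The coverage ratio sets the supporting reads over the reference reads, with 1 added to the reference reads. A ratio of at least 3 is the minimum that the study used for confident calls. With *jockey* at 104 calls and *Doc* at 63, these families made up more than the other 8 together. The *I-element* had 49 calls, *F-element* 32, *Juan* 24, *Ivk* 17, *BS* 10, *X-element* 6, *G2* 5 and *G5* 2. Merged reads gave the families the same order from *jockey* (88) and *Doc* (51) to *G2* (3) and *G5* (2). No call of *baggins* was listed.

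The TE positions of the calls fell into a few classes that differed between families. In 67 of the 312 calls, 1 side lay in the first 150 bp of the TE and the other in the last 150 bp below the highest position listed for the family, which is where the ends of a complete element would lie. Both sides lay in the first 150 bp in 119 calls and both in the last 150 bp in 61. An interior position was paired with the last 150 bp in 38 calls and with the first 150 bp in 2, and both positions were interior in 25. The *I-element* and *Ivk* had most of their calls in the class with both ends, 30 of 49 and 10 of 17. For *Doc* and *F-element* the class was rare, with 2 of 63 and 2 of 32 calls. Instead, 57 *Doc* calls and 25 *F-element* calls had both sides in the first 150 bp of the element. The 7 *BS* calls of 10 and 11 *Juan* calls of 24 that had both sides in the last 150 bp were the most common class of their families.

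**Figure D1:**
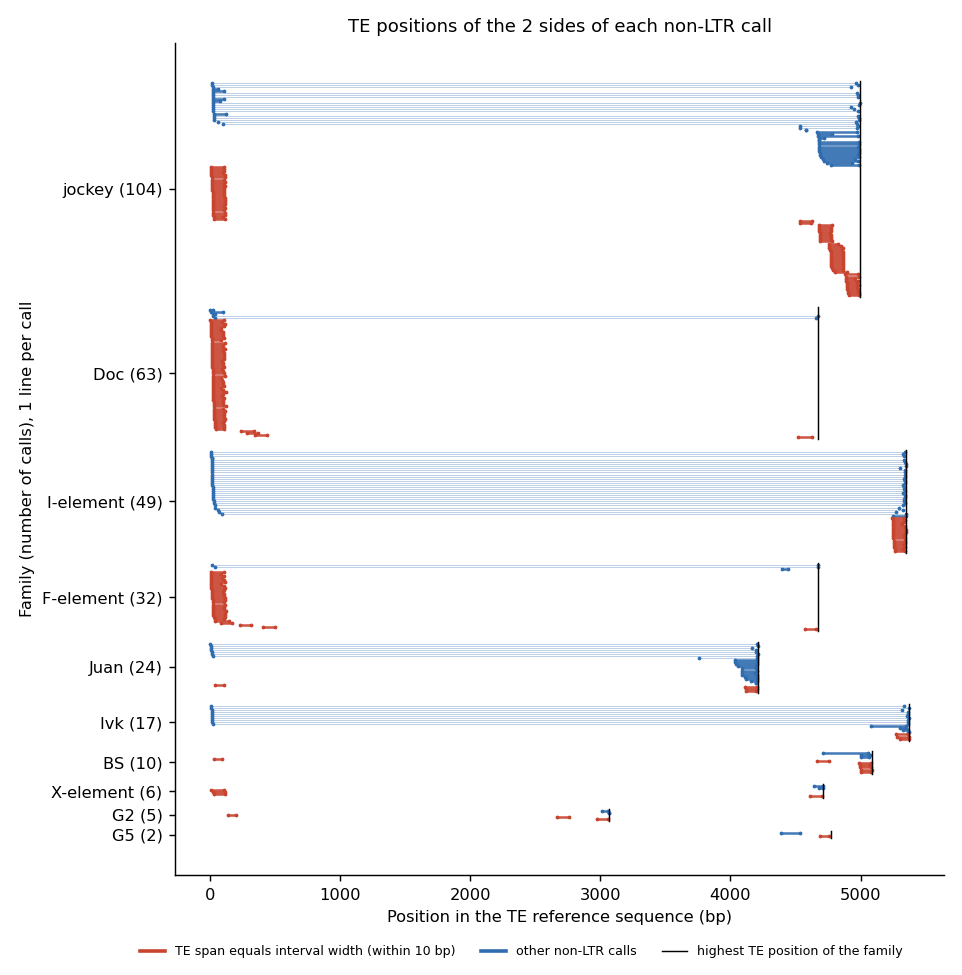
TE positions of the 2 sides of each non-LTR call from reads treated as single-end, with 1 horizontal line per call, grouped by family from *jockey* at the top to *G5*, and the position in the TE reference sequence in bp on the x axis. Red lines are the 189 calls whose span in the TE equals the width of the genome interval within 10 bp, blue lines all others, and black bars the highest TE position listed for the family in either list. Long blue lines join both ends of the element and are most frequent in the *I-element*, and red blocks fill the start of *Doc* and *F-element* and the last part of *jockey*.

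No single class held most *jockey* calls. Its 104 calls comprised 16 with both ends, 31 with both sides in the first 150 bp, 30 with an interior side and a side in the last 150 bp, 16 with interior positions only and 11 with both sides in the last 150 bp. The lower TE position recurred at a few places. It lay between 4667 and 4698 in 22 calls, between 4758 and 4789 in 15 and between 4884 and 4897 in 8, where the highest *jockey* position listed was 4992. All 8 calls of the last group and 14 of the 15 in the middle group had a span in the TE equal to the interval width. Among the 22 of the first group, 9 had this property. The higher TE position lay in the last 150 bp in all 8 calls of the last group, in 14 of the 15 and in 10 of the 22. In a call with an equal span the lower position is tied to the higher one by the interval width. Whether the recurring positions are breakpoints of the element was not tested. These groups are bins of 50 bp chosen after the positions were seen. In merged reads the same bins held 14, 13 and 10 of 88 *jockey* calls, at 4676 to 4699, 4757 to 4785 and 4856 to 4884, so that the positions of the last group were lower than in reads treated as single-end.

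In most non-LTR calls the span between the 2 TE positions equalled the width of the genome interval. This was so within 10 bp in 189 of the 312 calls (60.6%, exact binomial interval 54.9 to 66.0%), against 126 of 1390 calls of all other families (9.06%, 7.61 to 10.7%). The difference was not tested, since calls of 1 library are not replicates. Equal spans were found in 58 of 63 *Doc* calls, 29 of 32 *F-element* calls, 63 of 104 *jockey* calls and 7 of 10 *BS* calls. In *Juan*, *Ivk* and the *I-element* they were fewer, with 4 of 24, 3 of 17 and 17 of 49 calls. Merged reads gave 172 of 269 non-LTR calls and 78 of 1218 other calls. Of the 259 calls found in both lists, 144 had equal spans in both, 95 in neither, 18 in merged reads only and 2 in reads treated as single-end only. What the 2 TE positions of such a call stand for is not stated in the lists, and whether each is an insertion was not tested.

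Calls with equal spans had narrow intervals. All 189 were between 60 and 111 bp wide, with a median of 89.0 bp, whereas the other non-LTR calls had a median of 211 bp. Over all families of the group the median width was 95 bp in non-LTR calls and 223 bp in all other calls. Intervals under 150 bp made up 214 of the 312 non-LTR calls (68.6%, 63.1 to 73.7%) and 177 of the 1390 other calls (12.7%, 11.0 to 14.6%). Among these narrow intervals, 189 of 214 non-LTR calls and 72 of 177 other calls had equal spans. Equal spans thus also made up a larger part of narrow non-LTR intervals than of narrow intervals of other families, which was not tested. Outside the non-LTR families, equal spans were frequent in the LTR elements *copia* (19 of 37), *flea* (22 of 48) and *Burdock* (10 of 26) in reads treated as single-end, against 1 of 34, 0 of 38 and 1 of 26 in merged reads.

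**Figure D2:**
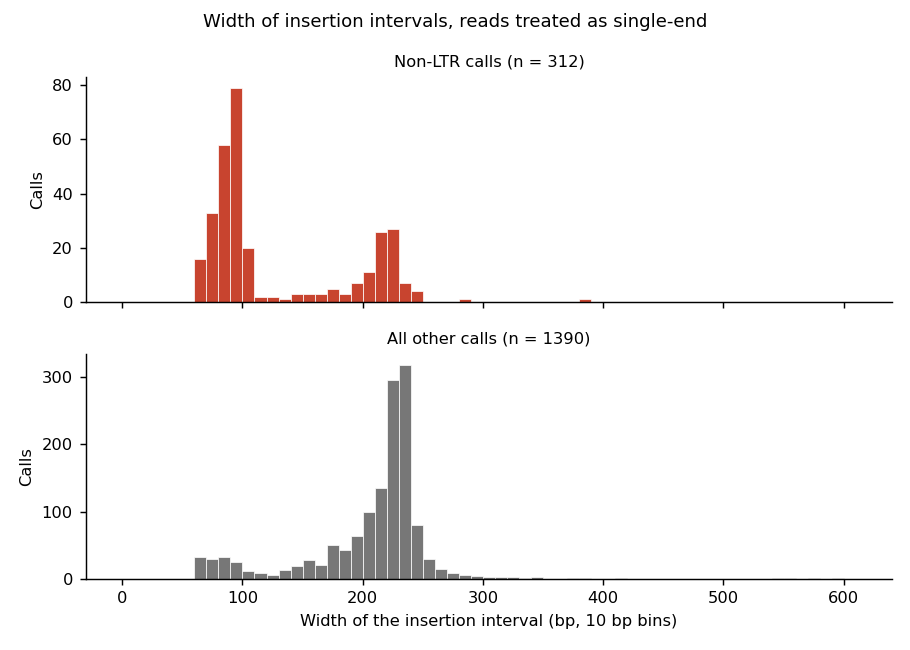
Number of calls by width of the insertion interval in bins of 10 bp, for the 312 non-LTR calls (top) and the 1390 calls of all other families (bottom), from reads treated as single-end. Non-LTR calls have a large peak at 90 to 99 bp with 79 calls and a smaller one at 220 to 229 bp with 27, whereas the other calls have 296 at 220 to 229 bp and 25 at 90 to 99 bp.

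Read support overlapped widely between non-LTR and other calls. Supporting reads ranged from 4 to 153 in non-LTR calls, with a median of 33 (interquartile range 14 to 62.2), and from 4 to 197 in the others, with a median of 37 (14 to 73). Reference reads had medians of 44.0 and 37.5. The median coverage ratio was 0.7 in non-LTR calls and 1.0 in the others, and 185 of 312 (59.3%, 53.6 to 64.8%) against 685 of 1390 (49.3%, 46.6 to 51.9%) had a ratio under 1. Reference reads were normalized and supporting reads were not, so a ratio under 1 does not by itself show which reads were more numerous in the pooled library.

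Among the families, with no test between them, median ratios were highest in *Juan* (1.9), *Ivk* (1.7) and *BS* (1.65), followed by *G5* (1.4 from 2 calls), *jockey* and the *I-element* (0.8 each), *F-element* and *G2* (0.6 each), *Doc* (0.3) and *X-element* (0.25). Family ranges overlapped throughout: in *jockey* the ratio ran between 0.1 and 28.0, and in *Ivk* between 0.1 and 16.2. *Doc* had the lowest support among families with over 10 calls, at a median of 16 supporting and 58.8 reference reads, and no *Doc* call exceeded a ratio of 2.3 in this list, against a highest *Doc* ratio of 4.4 in merged reads. In *Juan* the medians were 60.5 supporting and 36.1 reference reads. The non-LTR call with most reads was an *F-element* in an intron of *pHCl-1*, a pH-sensitive chloride channel gene, on 3L between 15886362 and 15886598, with 153 supporting reads and a ratio of 4.9.

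**Figure D3:**
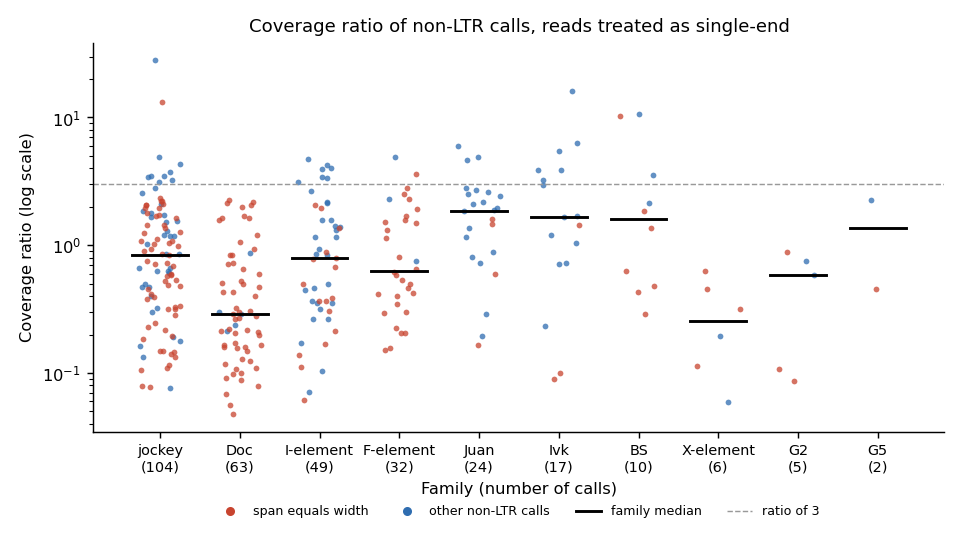
Coverage ratio (supporting reads over reference reads plus 1, log scale) of the 312 non-LTR calls by family, with the number of calls in brackets, red points for calls with equal spans, blue for the others, black bars for family medians and a dashed line at 3. Points above the line occur in *jockey*, *I-element*, *F-element*, *Juan*, *Ivk* and *BS*, and almost all of them are blue.

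Calls with equal spans also had lower ratios. Their median was 0.5 from 25 supporting and 54.0 reference reads, and in the other non-LTR calls it was 1.3 from 49 supporting and 36.6 reference reads. A ratio of at least 3 was reached by 3 of the 189 calls with equal spans and by 29 of the others (23.6%). In merged reads these numbers were 8 of 172 and 25 of 97. Reference reads over the interval and equal spans moved together here, and the part of one in the other was not tested.

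**Figure D4:**
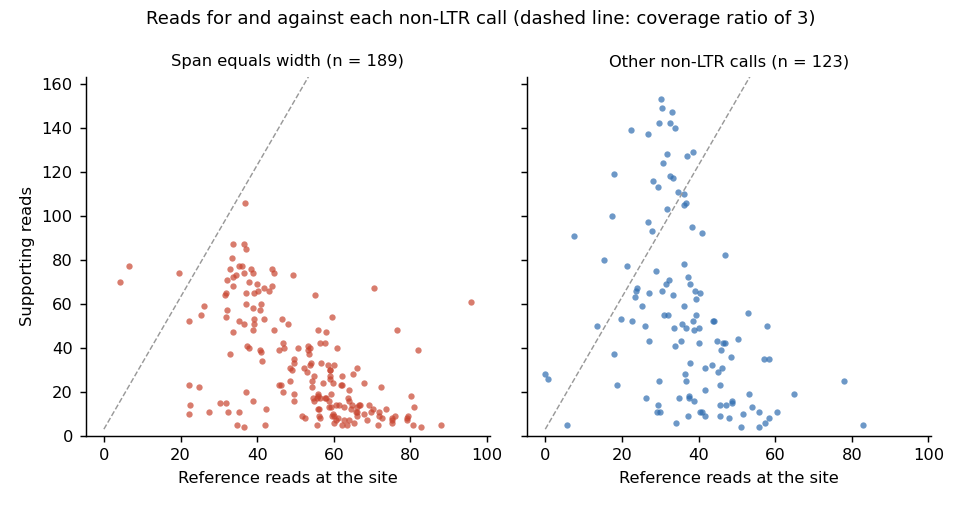
Supporting reads (y axis) against reference reads at the site (x axis) for the 189 non-LTR calls with equal spans (left, red) and all other non-LTR calls (right, blue), with a dashed line where the coverage ratio is 3. Of the calls with equal spans 3 lie above the line, against 29 of the others.

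A coverage ratio of at least 3 was found in 32 of the 312 non-LTR calls (10.3%, 7.12 to 14.2%) and in 247 of the 1390 others (17.8%, 15.8 to 19.9%). *jockey* contributed 10 of the 32, the *I-element* and *Ivk* 7 each, *BS* and *Juan* 3 each and *F-element* 2. *Doc*, *G2*, *G5* and *X-element* had none. In merged reads 33 of 269 non-LTR and 244 of 1218 other calls passed, and 1 of the 33 was a *Doc*. The share was lower in non-LTR calls in both lists, which come from the same reads, and the difference was not tested. Among intervals of 150 bp or wider, 26 of 98 non-LTR calls and 242 of 1213 other calls passed, so that the order of the shares was the other way in wide intervals.

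In both lists 28 non-LTR calls had a ratio of at least 3, of 247 such calls over all families. They comprised 8 *jockey*, 7 *I-element*, 5 *Ivk*, 3 *BS*, 3 *Juan* and 2 *F-element* calls. Positions at both ends of the element were given for 16 of them, and 15 lay in genes. All 7 *I-element* calls were of this two-ended kind, with ratios between 3.1 and 4.7. The highest was intergenic, on 2L between 21884441 and 21884670, with 79 and 70 reads on the 2 sides against 30.4 reference reads, a ratio of 4.7 (4.01 to 5.57 by the exact Poisson interval of its supporting reads). An *I-element* on X between 3200025 and 3200256 lay in an intron of *dnc*, the cAMP phosphodiesterase gene dunce, with 77 and 65 reads and a ratio of 4.2. On 3L between 3920043 and 3920267, another in an intron of *Eip63F-1* (in an exon by merged reads), an ecdysone-induced gene, had 64 and 76 reads and a ratio of 4.0. These 3 calls were nearly even between the sides, and the uninterrupted site had between 30.4 and 33.9 reference reads in each. The other 4 lay on X in introns of *CG1677* and a long non-coding RNA gene (ratio 4.0), at 2 intergenic sites of X (3.4 and 3.3) and at an intergenic site of 3L (3.1), with at least 51 reads on every side.

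The *Ivk* calls in both lists had ratios between 3.2 and 6.3. The highest lay in the 3′ UTR of CG9525 on 2L between 8959826 and 8960047, with 88 and 31 reads, a ratio of 6.3 (5.19 to 7.49) and TE positions 5082 and 5348, so that no side was at the start of the element. An intergenic *Ivk* on 3L between 3107875 and 3108095 had a ratio of 5.4 with both positions in the last 150 bp. One in an intron of *Glut4EF*, a transcription factor gene, on 3R had 56 and 68 reads at both ends and a ratio of 3.9. The *Juan* calls had ratios of 6.0 in an intergenic interval of 3L (22638700 to 22638926, 70 and 69 reads), 4.9 in an intron of CG4374 on 3R and 4.6 in an intron of *Dd*, the phosphatase gene Dullard, on X.

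Among the *jockey* calls in both lists with reference reads above 20, ratios lay between 3.3 and 4.9. The highest was in the 3′ UTR of a long non-coding RNA gene on 2L between 18278710 and 18278942, with 77 and 60 reads, and had TE positions 4771 and 4988. A *jockey* with both ends of the element was intergenic on 3L between 22497914 and 22498150, with 67 and 80 reads and a ratio of 4.3, and one in an intron of CG15249 on X had 44 and 69 reads and a ratio of 3.7. A *BS* in an intron of *dysc*, the dyschronic gene, on 3L had 47 and 71 reads and a ratio of 3.5. The second *F-element* in both lists was intergenic on 3L between 22935635 and 22935733, within the first 150 bp of the element, and its ratio was 3.6 with 19.6 reference reads, against 9.8 with 4.2 reference reads in merged reads.

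The highest ratios came from sites with few reference reads. A *jockey* on 3R between 21735283 and 21735377 had 18 and 10 supporting reads and 0.0 reference reads, which gives a ratio of 28.0 (18.6 to 40.5), and 15 and 4 reads with a ratio of 19.0 in merged reads. The *jockey* in the 3′ UTR of CG1986 on X between 9909208 and 9909299 had 30 and 40 reads, 4.3 reference reads and a ratio of 13.2, against 4.0 in merged reads. Of the *BS* calls, an intergenic one on 2L between 15142165 and 15142372 had 56 and 35 reads and a ratio of 10.7. In merged reads its ratio was 6.2. A *BS* in an intron of *Gdap2* on 2R had 38 and 39 reads, 6.5 reference reads and a ratio of 10.3, with 7.8 in merged reads. With so few reference reads the ratio is poorly determined, and the Poisson intervals take the reference reads as fixed.

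One call with a high ratio was found in 1 list only. This *Ivk* on X, in an intergenic interval between 21049430 and 21049525, had 24 and 2 reads, 0.6 reference reads and a ratio of 16.2 (10.6 to 23.8), with TE positions 5371 and 5363, and had no counterpart in merged reads. A further 3 calls passed the minimum of 3 in reads treated as single-end only and had counterparts in merged reads, and 5 passed in merged reads only, among them a *jockey* in *capu*, at 2.5 in the first list and 4.4 in merged reads. No call found in merged reads alone exceeded a ratio of 0.3.

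In all, 259 of the 312 non-LTR calls (83.0%, 78.4 to 87.0%) had a counterpart, an overlapping call of their own family, in merged reads, against 1195 of the 1390 calls of other families (86.0%, 84.0 to 87.8%). The 53 without a counterpart had medians of 9 supporting reads and a ratio of 0.1. In merged reads 10 non-LTR calls had none in turn. Ratios of the 259 pairs differed by at most 0.5 in 226 and by at most 1 in 245. *Doc* had 44 of its 63 calls in both lists, *jockey* 88 of 104, the *I-element* 43 of 49 and *Juan* 23 of 24.

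Supporting reads were compared between the 2 sides of each call with a two-sided exact binomial test against equal shares, with Benjamini-Hochberg adjustment over all 1702 calls. The sides were unequal at an adjusted p under 0.05 in 24 of the 312 non-LTR calls (7.69%), and in 7.64% of all calls, so the share in non-LTR calls was near the background. *jockey* had 11 of the 24, the *I-element* 3, *BS*, *F-element*, *Ivk* and *Juan* 2 each, and *Doc* and *G5* 1 each. The test compares reads of 1 library and not flies. In merged reads 6 of 269 non-LTR calls were unequal, against 3.36% of all calls, and 21 of the 24 had a counterpart there, of which 3 were unequal as well and 4 had the larger side turned.

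**Figure D5:**
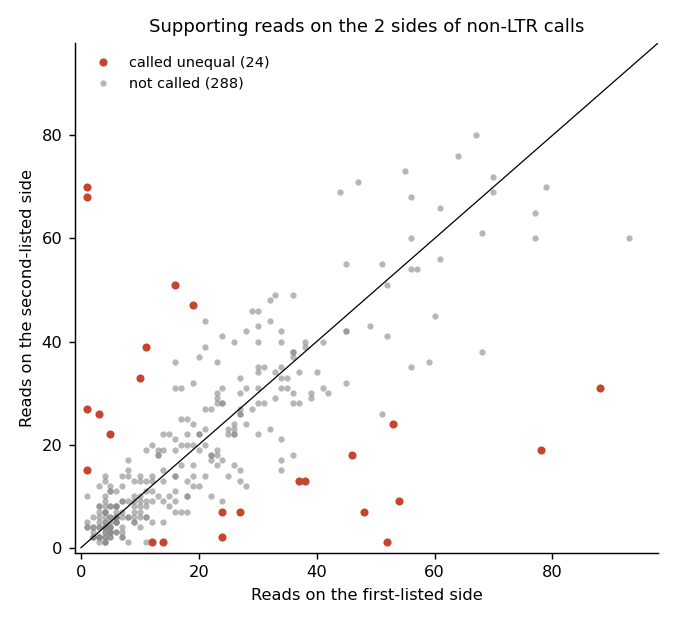
Supporting reads on the first-listed side (x axis) and the second-listed side (y axis) of the 312 non-LTR calls from reads treated as single-end, with the 24 calls of unequal sides in red, the other 288 in grey, and a line at equal numbers. Most points lie along the line, and a few red points with 1 read on a side lie close to an axis.

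By this exact test the most unequal call was an *I-element* on X between 13437710 and 13437958, in an intergenic interval, with 1 and 70 reads (adjusted p = 1.04e-16), and merged reads gave 1 and 43. A *BS* on 3R between 7477355 and 7477555 had 1 and 68 reads (exact adjusted p = 2.02e-16) and no counterpart in merged reads. The *jockey* in an intron of *capu*, the actin-nucleating formin gene cappuccino, on 2L between 3890668 and 3890838 had 52 and 1 reads (exact adjusted p = 4.08e-12). Its TE positions were 24 and 4930. In merged reads this call had 16 and 24 reads at TE positions 27 and 139, both in the first 150 bp of the element. The 2 lists thus do not compare the same 2 sides of this call. A *jockey* in an intron of *Rbp6*, an RNA-binding protein gene, on 3L between 17135960 and 17136194 had 78 and 19 reads (exact adjusted p = 1.23e-07), and 39 and 22 in merged reads. The intergenic *Juan* on 2L between 17609172 and 17609387 had 54 and 9 reads (exact adjusted p = 5.78e-07), and merged reads gave 32 and 3.

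Unequal sides occurred in 7 of the 189 calls with equal spans (3.70%) and in 17 of the others (13.8%). In all other families they occurred in 6 of 126 (4.76%) and 100 of 1264 (7.91%). Median supporting reads were 25 and 49 in the 2 non-LTR classes, and calls with few reads pass the test less easily. These differences were not tested. Against 7.64% of all calls, 9 were unequal (13.4%) among the 67 calls with both ends of the element. Which side count goes with which TE position is not stated in the lists. If the first count goes with the first-listed position, 2076 of their reads lay on the side of the element's start and 1911 on the side of its end (52.1% at the start), with 525 and 415 in *jockey*, 817 and 827 in the *I-element*, 379 and 357 in *Ivk* and 217 and 246 in *Juan*. Of the 9 unequal calls, 7 then had more reads at the start. The opposite pairing turns these shares round. Under either pairing the pooled reads of the 2 ends were close to even in the *I-element* and *Ivk*. The *jockey* total of this list included the 52 to 1 call in *capu*. In merged reads, where the *capu* call was not of this class, 12 *jockey* calls with both ends had 276 and 205 reads. This was 57.4% at the start by the first pairing, so the *jockey* excess in pooled reads did not rest on that call alone. It was not shared by most *jockey* calls with both ends in reads treated as single-end. By the first pairing, 7 of these 16 calls had more reads at the start and 8 at the end. All 4 unequal calls among the 16 had more reads at the start. In merged reads, which come from the same library, 6 of the 12 calls had more reads at the start and 4 at the end.

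By the deposited annotation most non-LTR calls lay in genes, and most of these in introns. Inside genes were 177 of 312 (56.7%, 51.0 to 62.3%), against 936 of 1390 other calls (67.3%, 64.8 to 69.8%), a difference that was not tested. The other families differed widely in this share, with 94.3% in *FB* (197 of 209 calls) and 53.9% in *pogo* (41 of 76). In introns only were 149 non-LTR calls (47.8%) and 771 others (55.5%), and in an exon or UTR 8.97% of non-LTR calls, a total of 28, and 11.9% of the others. Of the 28, 14 had a part in a 3′ UTR, 7 in a 5′ UTR and 8 in an exon. The 8 exonic calls were 3 *Doc*, 2 *I-element*, 2 *jockey* and 1 *F-element*, with ratios of at most 1.6 in reads treated as single-end. That highest exonic ratio belonged to a *Doc* in *prom* on 2R, and the others included a *jockey* in *spartin* (1.1) and one in *ppk21* (1.0), a gene of the pickpocket sodium channel family, which were named here after their values were seen. In merged reads 10 non-LTR calls had a part in an exon. Among them was the *I-element* of *Eip63F-1*, intronic in the first list, with a ratio of 4.2 in merged reads. By family, genes held 53 of 104 *jockey*, 36 of 63 *Doc*, 32 of 49 *I-element*, 20 of 32 *F-element*, 15 of 24 *Juan*, 9 of 17 *Ivk* and 6 of 10 *BS* calls, and neither *G5* call.

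Host genes numbered 177, of which 9 held more than 1 non-LTR call. *Dys*, the dystrophin gene, with a span of 136 kb on 3R, had 4 from 4 families: a *Juan* with a ratio of 2.5, a *jockey* with 0.6, a *BS* with 0.4 and a *Doc* with 0.3, all in introns. *Mef2*, the muscle transcription factor gene on 2R, had a *jockey* at 2.1, an *I-element* at 1.2 and a *Juan* at 0.7. In *kirre*, which encodes an immunoglobulin-family adhesion protein of myoblast fusion, lay an *Ivk* with both ends at 3.2, a *BS* at 1.9 and an *I-element* at 1.4, all on X. *kirre* spans 394 kb and held 11 calls of all families. Apart from *kirre* and *Rbp6*, where a *jockey* at 3.5 lay beside an *X-element* at 0.6, no gene with several non-LTR calls had one with a ratio of at least 3. The other genes were *Ac76E*, an adenylyl cyclase gene, *kuz*, which encodes the metalloprotease Kuzbanian, *klg*, *CG13954* and *CG30377*, each with 2 calls and ratios of at most 1.7. The lower ratios in these genes came from as few as 5 reads, as in a *Doc* of *CG13954* with 2 and 3.

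The orientation of calls with both ends could be set against that of the host gene in 34 cases with a single gene. Reading the first-listed TE position as that of the lower genome coordinate, which the lists do not state, 18 had the strand of the gene and 16 the opposite one (52.9% the same, 35.1 to 70.2%). The reverse reading exchanges the 2 numbers, and neither is far from even.

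By chromosome arm, 2L held 61 non-LTR calls and 2R 63, 3L held 62 and 3R 83, and X held 37, with 4 more on chromosome 4 and 2 on Y. The other calls numbered 222, 274, 327, 313, 240, 12 and 2 in the same order of arms. X thus held 11.9% of non-LTR calls (8.49 to 15.97%) and 17.3% of the others (15.3 to 19.4%), which was not tested. Among the other families it held 27.3% of *FB* and 22.2% of *roo* calls, but 9.21% of *pogo* and 2.70% of *copia* calls. The 37 calls on X had a median ratio of 1.7 and the 275 elsewhere 0.6, and a ratio of at least 3 was reached by 10 of 37 and 22 of 275. The other calls, pooled over their families, had 91 of 240 on X and 156 of 1150 elsewhere. *jockey* had 16 and the *I-element* 10 of the 37 calls on X, while *Doc* had 4 and *F-element* 1. The 2 calls on Y, a *G2* with 21 and 14 reads and a *G5* with 14 and 1, were both intergenic with ratios of 0.6 and 0.5. Merged reads listed both calls too, although the study's methods give the flies as females. On chromosome 4 lay 3 *Doc* calls and 1 *F-element*, among them the *Doc* with most supporting reads, 30 and 46 in the 3′ UTR of CG1909. Also among them was a pair in introns of *zfh2* and *ey*, the eyeless gene, with ratios of 0.2 each. This pair was named here after its values were seen.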

How the data were processed

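Genomic DNA of ORw1118 females was sequenced from 3 biological replicates, which the authors quality-filtered with Trim Galore, pooled, and searched for TE insertions with TIDAL after turning read pairs into single-end reads by 2 routes. Supporting reads are counts of collapsed split reads as deposited, over both sides together and not normalized. Reference reads are a signal of the empty site that the authors normalized with TIDAL, in a way not given in the sources used here. The deposited coverage ratio equals supporting reads over reference reads plus 1 within 0.05. The fraction of reads on the first side and the average BLAT score were deposited by the authors; the tests used the read numbers of the 2 sides, and the score was only tabulated.

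Calls in the 2 lists were paired by family and an overlap of at least 1 bp. Equal spans (within 10 bp) and element ends (windows of 150 bp) were classes defined after the positions were seen. Shares carry exact binomial (Clopper-Pearson) intervals and ratios exact Poisson intervals, at 95%, covering counting error only. The side test was first tested on simulated data. RefSeq (Release 6) gene spans covered the interval for all 190 gene names of the calls. Calls were named if their ratio was at least 3 in both lists or in 1 list without counterpart, if they led their family in reads or ratio, if they had one of the 5 smallest side p-values, or if their gene held 2 or more. Some exonic and chromosome 4 calls were named outside these rules, after their values were seen. The alternatives were merged reads, other minimums and thresholds, other overlap rules, RefSeq gene bodies and the 8 families named first. Members and lists were chosen with earlier results of these data known. Analyses ran in Python 3.11.15 with pandas 2.3.3, scipy 1.17.1, numpy 2.4.6 and, for plots, matplotlib 3.10.9.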

Additional observations from a re-analysis of the deposited data

How the results depend on the processing

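The number of non-LTR calls with unequal sides was 24, against 6 in merged reads and 13 at an adjusted p under 0.01. The share with a coverage ratio of at least 3 was 10.3%, with 21.5% at a minimum of 2 and 2.56% at a minimum of 5. Of the 32 calls that passed 3, 50% lay inside a gene and 31.2% lay on X, against 56.7% and 11.9% over all 312 calls. In both lists 87.5% of the 32 reached this minimum. That is a stricter measure than a counterpart of any ratio, which 83.0% of the 312 calls had. Equal spans made up 60.6% of the 312 calls and 88.3% of those with intervals under 150 bp. The other 12 alternatives moved their values by less than the exact interval or by less than 1.5 times. Among them were tolerances of 2 and 20 bp and merged reads for equal spans, which gave 55.8 to 63.9%. All alternatives for equal spans were chosen after seeing the data. The cause of these changes was not tested, and each stricter minimum leaves fewer calls. No paired analysis was possible because the replicates were pooled before calling, and for the same reason no replicate could be left out. Depth limits the side test, since calls with few reads can pass it only with nearly all reads on 1 side.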
